A study of Rattus norvegicus with 55 samples.

Results

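Anxa1, Anxa2, Krt18, Lgals3 and Ccl2 are 5 genes known from injured kidney tubules. Of 4737 genes named on a rat expression array they are 5, read by 8 of its 8799 probe sets, and these 8 probe sets are described here across the developmental stages of the kidney. A probe set is a group of short probes directed at a transcript. A probe set was taken where the annotation of the array names 1 of the 5 genes for it and no other gene. Anxa1, Krt18 and Ccl2 have 2 probe sets each, and Anxa2 and Lgals3 have 1 each. All 8 probe sets passed the filter on dim values, which 6555 probe sets passed.

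Total RNA from kidney was hybridised to 55 arrays. All samples are titled as kidney of the SHR, the spontaneously hypertensive rat, a strain that develops high blood pressure, and their descriptions call the rats Wistar-derived. The descriptions carry a stage word on 13 immature, 14 young and 14 mature samples, and 14 samples have no stage word. No age, sex, treatment or blood pressure is given, no normotensive strain is among the samples, and no label ties the arrays of a group to different rats. The p-values therefore reflect only how far these samples spread, part of which may be technical. The arrays were also split by the intensity of X56596_at, a probe set of RT1-Bb, the gene of a class II MHC beta chain. On 12 arrays it read 1411.5 to 2381.2 (median 1740.3) and on the other 43 it read 80.1 to 263 (median 147.6). The value of 600 lies in the gap between them. Each of the 4 stage descriptions holds 3 arrays above 600. This split is a measured reading and no label of the study.

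The defining kidney genes were present on every array. Umod of the thick ascending limb read 3995 to 19719.3, Slc34a1 of the proximal tubule 3890 to 38360.2 and Aqp2 of the collecting duct 1182.2 to 3556.6. Krt5, a keratin of the urothelium and the only listed urothelial gene on the array, read 4.3 to 87.1 and did not pass the filter. The 6 listed markers of liver, muscle, fat or adrenal all passed it. They ranged from Alb, at 37.8 to 138.9, to Lep, at 1130.5 to 4446.9. By their control probe sets the arrays form 3 clusters, which are termed batches below; no label names a batch. Batch 1 held 4 mature and 6 immature arrays. Batch 2 held 7 immature, 6 young and 6 arrays without a stage word, and batch 3 held 8 young, 10 mature and 8 without a stage word. The arrays above 600 lie in batch 1 (immature and mature) and batch 2 (young and no stage word). The ratio of the 3' to the 5' GAPDH control, which is high in degraded RNA, reached 7.18 (mature replicate 1) and 3.47 (mature replicate 9), and was at most 2.62 elsewhere.

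Annexins are cytosolic proteins that bind acidic phospholipids when calcium is present. Annexin A1 (Anxa1) is induced by glucocorticoids and dampens inflammation through formyl peptide receptors. Annexin A2 (Anxa2) binds the S100 protein p11 (S100a10) and helps to organise membrane, actin and plasmin formation at the cell surface. Keratin 18 (Krt18) forms the intermediate filaments of simple epithelia together with keratin 8. Galectin-3 (Lgals3) is a lectin for beta-galactosides made by collecting duct cells, the ureteric bud and macrophages, and CCL2 (Ccl2) is the chemokine that draws monocytes through the receptor CCR2. In rodent kidney all 5 are known to rise when tubules are injured.

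The RefSeq promoters available for these genes are printed as a description (build GRCr8). They run from 250 bases before to 50 bases after the annotated start. They are those of Anxa1 (chr1:227303683-227303982, minus strand), Anxa2 (chr8:78986002-78986301, plus strand) and Krt18 (chr7:135035918-135036217, plus strand). Lgals3 and Ccl2 are named only. Capitals mark every match to a TATA box, spelled TATAAA. They also mark the AP-1 site, spelled TGANTCA, and the GC box, spelled GGGCGG. The last motif is CCAAT, and all were searched on both strands.
Anxa1: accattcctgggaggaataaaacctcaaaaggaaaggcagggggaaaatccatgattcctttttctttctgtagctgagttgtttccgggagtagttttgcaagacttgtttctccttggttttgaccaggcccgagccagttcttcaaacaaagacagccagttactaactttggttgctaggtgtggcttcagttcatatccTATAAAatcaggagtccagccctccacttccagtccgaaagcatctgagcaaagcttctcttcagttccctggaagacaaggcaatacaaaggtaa
Anxa2: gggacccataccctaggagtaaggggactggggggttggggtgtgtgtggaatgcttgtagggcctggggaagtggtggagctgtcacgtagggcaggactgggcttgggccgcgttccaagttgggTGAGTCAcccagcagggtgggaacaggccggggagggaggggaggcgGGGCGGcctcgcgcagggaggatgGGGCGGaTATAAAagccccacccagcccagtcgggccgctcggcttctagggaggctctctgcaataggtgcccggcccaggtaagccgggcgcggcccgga
Krt18: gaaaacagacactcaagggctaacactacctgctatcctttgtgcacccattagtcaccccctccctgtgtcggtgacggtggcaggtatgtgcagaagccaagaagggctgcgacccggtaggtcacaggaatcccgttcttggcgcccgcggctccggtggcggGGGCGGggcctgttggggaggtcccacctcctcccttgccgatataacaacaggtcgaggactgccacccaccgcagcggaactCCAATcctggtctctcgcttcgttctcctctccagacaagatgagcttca
A TATA box match lies 46 bases before the start in Anxa1 and 45 in Anxa2, and 14.2% of 33469 rat promoters of this length hold such a match. Anxa2 also has 2 matches to the GC box, at 76 and 52 bases before the start, and Krt18 has 1 at 84, against 33.1% of promoters with a match. The AP-1 letters occur only in Anxa2 among the 3, at 123 bases before the start (7.33% of promoters). CCAAT occurs only in Krt18, at the start itself (37.5% of promoters). No 2 of these matches overlap. A match is a description of letters, and no motif was common to all 3 promoters. Shared control of the genes was not tested.

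The stage comparisons ask how kidney expression changes as the rat matures. All 8 probe sets differed among the 4 stage descriptions (moderated F test of limma, adjusted p = 4.12e-06 to 0.0307), where 28.5% of all probe sets tested did. The highest of these p-values, of X81448cds_at of Krt18, was 0.0711 without mature replicate 9. In mature against immature kidney all 8 were lower, where 14.1% of all probe sets tested were called lower and 24.4% in either direction. The log2 differences lay between -1.07 and -0.49, and the median difference over all probe sets tested was 0.04. The genes were chosen with earlier results of these data known, and several of the 8 probe sets read the same gene. Counts of the 8, here and below, are therefore not independent of that choice or of each other. Values are on the scale log2(intensity + 15.82), and a probe set is called at a Benjamini-Hochberg adjusted p of 0.05 over all those tested. In bulk kidney RNA, fewer cells of a type and less RNA per cell cannot be told apart.

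**Figure D1:**
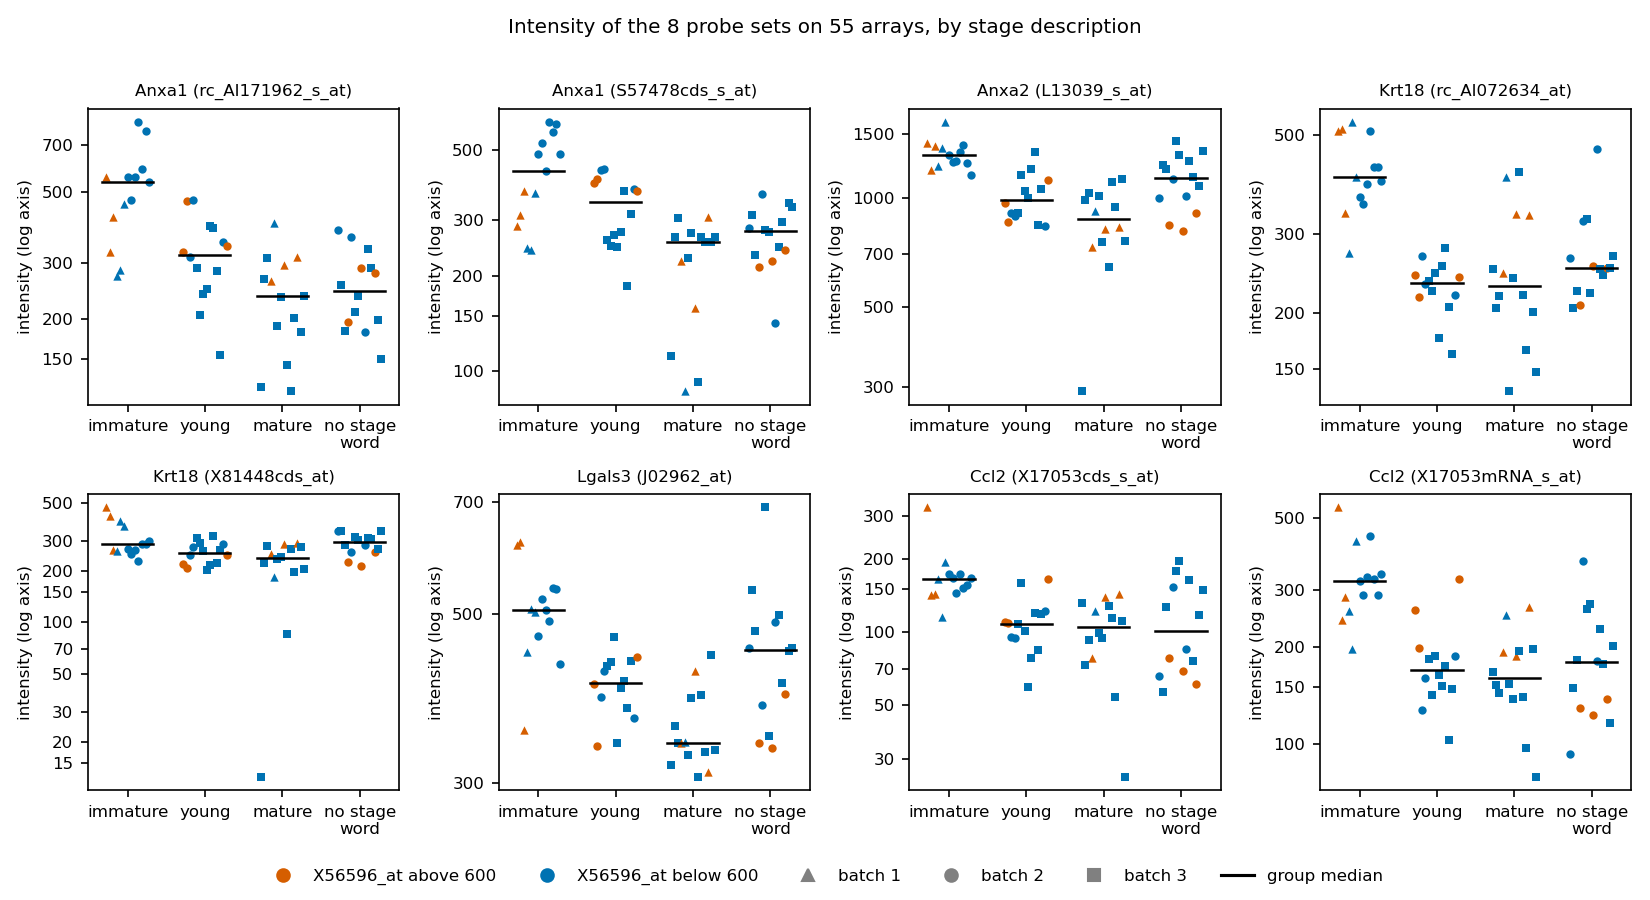
Deposited intensity of each of the 8 probe sets on every array (log axis), by stage description. Points are arrays, coloured by X56596_at above or below 600 and shaped by batch, and bars are group medians. On L13039_s_at (Anxa2) all 14 mature arrays lie below the lowest immature array at 1152.

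Anxa1 showed the largest difference of the 8 between mature and immature kidney. Its probe set rc_AI171962_s_at ran from 272.2 to 825.7 (median 536.7) in immature, 155 to 472 (median 318.25) in young and 119.4 to 399.9 (median 235.8) in mature kidney. In kidney without a stage word it ran from 150.8 to 379.9 (median 245.5). All 14 mature arrays lay below the immature median, and 10 of them lay below every immature array. The mature level was 2.10-fold lower than the immature level, with means of 7.89 ± 0.49 (SD, n = 14) in mature and 8.97 ± 0.48 (SD, n = 13) in immature kidney on the log2 scale (difference -1.07 ± 0.17 SE, adjusted p = 3e-06). The young level was lower than the immature level by -0.63 ± 0.17 on the log2 scale (adjusted p = 0.00603) and that without a stage word by -0.94 ± 0.17 (adjusted p = 2.76e-05).

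The second Anxa1 probe set, S57478cds_s_at, had the same direction with smaller differences. It ran from 242.5 to 614.9 (median 431) in immature, 186.8 to 435.7 (median 343.05) in young and 86.6 to 307.5 (median 256.8) in mature kidney, and from 142.6 to 363.3 (median 278.1) without a stage word. The groups overlapped, although all 14 mature arrays again lay below the immature median. The log2 difference was -0.93 ± 0.17 in mature against immature kidney (adjusted p = 3.88e-05) and -0.60 ± 0.17 without a stage word against immature (adjusted p = 0.00585). In young against immature kidney it was -0.34 ± 0.17, which did not pass (adjusted p = 0.153). The 3 lowest mature values, 86.6, 92.2 and 111.8, were on mature replicates 5, 9 and 1. Of these, replicates 9 and 1 had the GAPDH ratios of 3.47 and 7.18 and replicate 5 an actin 3'/5' ratio of 2.75. Mature replicate 12, with an actin ratio of 2.82 and a GAPDH ratio of 2.62, held the highest mature value, 307.5. Without replicates 1 and 9 the mature minus immature difference was -0.78 (adjusted p = 0.000197), and the part of RNA quality on replicate 5 was not tested.

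Immature kidney was not uniform for Anxa1. On S57478cds_s_at the 7 immature arrays of batch 2 read 431 to 614.9 and the 6 of batch 1 read 242.5 to 371.4, with no overlap, as on 19.3% of all probe sets tested. On rc_AI171962_s_at the medians were 557 in batch 2 and 370.3 in batch 1. The same 7 arrays read 13775.2 to 20470.5 on rc_AA859372_s_at, a probe set annotated to several genes, against 12.7 to 63.5 on the 6 of batch 1. The young and no-stage-word arrays of batch 2 read only 17.6 to 1797.8 on it. In batch 3 young replicate 12 read 4873.8 and no-stage-word replicate 14 read 12857.5. The part of batch in the Anxa1 levels of immature kidney was not tested. With batch as a block the mature minus immature difference was -0.74 (adjusted p = 0.00229) and -0.90 (adjusted p = 0.000228) for rc_AI171962_s_at and S57478cds_s_at. Inside batch 1, with 4 mature and 6 immature arrays, it was -0.24 (adjusted p = 0.669) and -0.71 (adjusted p = 0.278).

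Anxa2 was the 1 probe set of the 8 whose mature and immature groups did not overlap, where 0.519% of all probe sets tested did not overlap in either direction. L13039_s_at read 1152 to 1615.6 (median 1311.8) in immature, 836.8 to 1331.1 (median 982.65) in young and 293 to 1124.8 (median 872.8) in mature kidney, and 809.6 to 1427.4 (median 1131.65) without a stage word. The mature level was 1.60-fold lower than the immature level (log2 difference -0.68 ± 0.12, adjusted p = 2.14e-05). Young kidney was lower than immature kidney by a log2 difference of -0.39 ± 0.12 (adjusted p = 0.0147). Kidney without a stage word lay closest to the immature level, at -0.25 ± 0.12, which did not pass (adjusted p = 0.109). The lowest mature values, 293 and 643.6, were on replicates 1 and 9, and without them the mature minus immature difference was -0.53 (adjusted p = 8.92e-06) and that of kidney without a stage word against immature kidney passed at the same size (adjusted p = 0.0201, with 33.7% of all probe sets tested called). Inside batch 1 the mature minus immature difference was -0.72 (adjusted p = 0.0581).

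Krt18 was lower in mature than in immature kidney on both probe sets, but the 2 differed in where the other groups lay. On rc_AI072634_at the immature arrays read 272.6 to 534.5 (median 402.9), the young arrays 162.1 to 279.5 (median 233.5) and the mature arrays 133.6 to 412.3 (median 229.35). Arrays without a stage word read 205.3 to 464.9 (median 251.3). Of the 14 young arrays 13 lay below every immature array. The log2 difference from immature kidney was -0.81 ± 0.13 in young (adjusted p = 6.46e-06), -0.75 ± 0.13 in mature (adjusted p = 1.41e-05) and -0.62 ± 0.13 without a stage word (adjusted p = 0.000225). These correspond to levels 1.76-fold, 1.68-fold and 1.53-fold lower than in immature kidney.

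On X81448cds_at, the other Krt18 probe set, the stages lay close together. The immature arrays read 228.5 to 469.1 (median 286.8), the young 201.7 to 318.1 (median 254.9) and the mature 12.5 to 292.5 (median 238.6), and those without a stage word 212.1 to 343.6 (median 292.75). The mature minus immature difference was -0.64 ± 0.19 on the log2 scale (adjusted p = 0.0113). The differences from immature kidney of young kidney (-0.26 ± 0.19, adjusted p = 0.365) and of kidney without a stage word (-0.09 ± 0.19, adjusted p = 0.773) did not pass. The values of 12.5 and 84.9 on mature replicates 1 and 9 stood far below the next mature value of 183.4. Without these 2 arrays the mature minus immature difference was -0.31 (adjusted p = 0.0143), and without replicate 1 alone it was -0.42 (adjusted p = 0.00744). On the same arrays rc_AI072634_at read 251.1 and 412.3, and 412.3 was the highest mature value there.

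**Figure D2:**
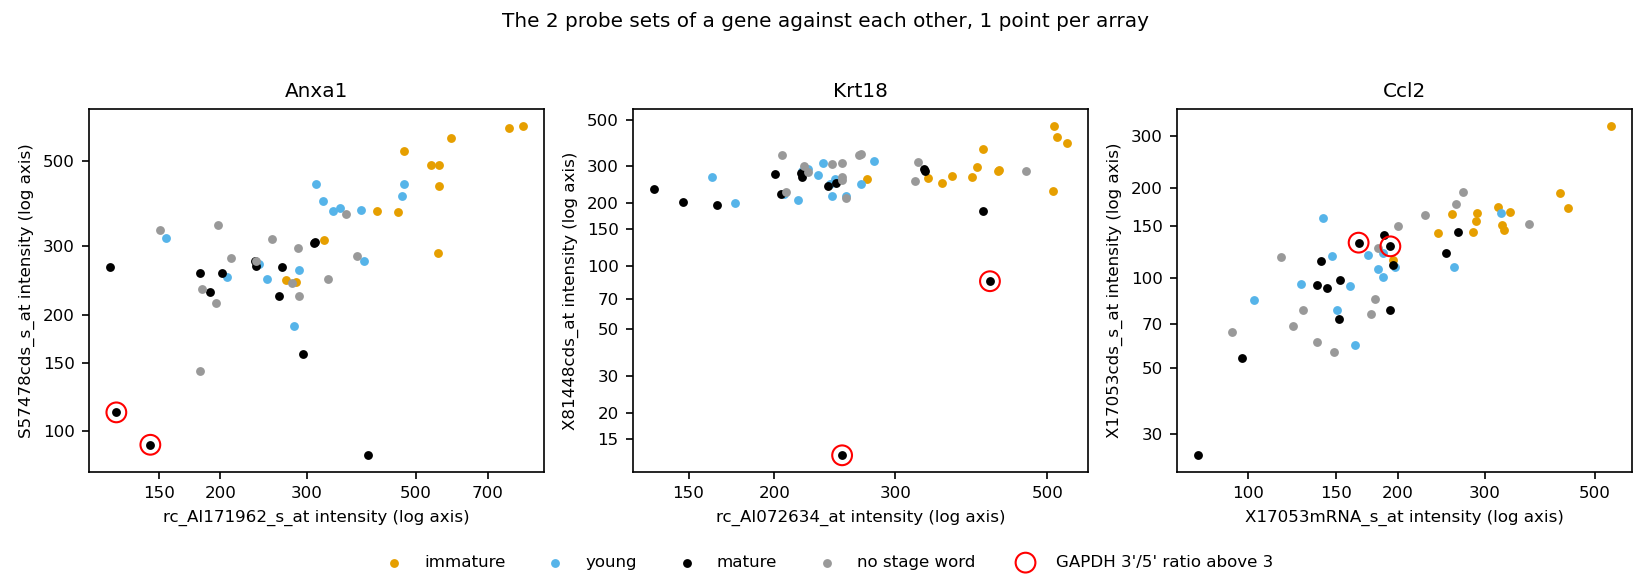
Intensities of the 2 probe sets of Anxa1, Krt18 and Ccl2 against each other (both axes log), with 1 point for each of 55 arrays, coloured by stage description. Red rings mark the 2 mature arrays whose GAPDH control ratio exceeds 3, where X81448cds_at of Krt18 read 12.5 and 84.9.

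How far the 2 probe sets of a gene followed each other was read from their correlation. Over the 55 arrays, which share stages and batches, Pearson's r of the log2 values was 0.82 for Ccl2, 0.64 for Anxa1 and 0.18 for Krt18. After the stage means were removed it was 0.74, 0.41 and -0.03. X81448cds_at and L13039_s_at of Anxa2 had an r of 0.80, and 0.76 after the stage means were removed. The values that involve X81448cds_at rest on mature replicates 1 and 9, whose GAPDH ratios were the highest. Without these 2 arrays, a setting chosen after seeing the data, the r of the 2 Krt18 probe sets was 0.48 (0.27 with the stage means removed) and that of X81448cds_at with L13039_s_at was 0.55 (0.35), whereas Ccl2 stood at 0.83 (0.74) and Anxa1 at 0.58 (0.32). Probe sets whose name ends in _s_at, 5 of the 8, may match more than 1 transcript, so reads of related transcripts cannot be told apart in them.

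Lgals3 had the smallest difference of the 8 probe sets between mature and immature kidney. J02962_at read 351.6 to 621.4 (median 505.1) in immature, 335.6 to 466.7 (median 406.05) in young and 305.6 to 441.4 (median 338.25) in mature kidney. Without a stage word it read 333 to 689.4 (median 448.55), which includes the highest value of all arrays, on replicate 6. All 14 mature and all 14 young arrays lay below the immature median. The mature level was 1.40-fold lower than the immature level (log2 difference -0.49 ± 0.09, adjusted p = 3.14e-05), and the young level was 1.23-fold lower (-0.30 ± 0.09, adjusted p = 0.0113). Kidney without a stage word differed from immature kidney by -0.18 ± 0.09, which did not pass (adjusted p = 0.111). Without replicate 6 of that group it was -0.23 and passed (adjusted p = 0.0314), as it did without immature replicate 3. With batch as a block the mature minus immature difference was -0.57 (adjusted p = 2.53e-05), and inside batch 1 it was -0.49 (adjusted p = 0.263).

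Ccl2 was lower than in immature kidney in all 3 other groups and on both probe sets, which were designed on the same database record. X17053mRNA_s_at read 196.2 to 539.3 (median 319.1) in immature, 102.8 to 323.8 (median 169.2) in young and 79.2 to 264.9 (median 159.85) in mature kidney, and 92.7 to 367.9 (median 178.65) without a stage word. Of the 14 mature arrays 12 lay below every immature array. The levels were 1.77-fold lower in young (log2 difference -0.82 ± 0.16, adjusted p = 0.000233), 1.88-fold lower in mature (-0.91 ± 0.16, adjusted p = 2.66e-05) and 1.74-fold lower without a stage word (-0.80 ± 0.16, adjusted p = 0.00015) than in immature kidney. The dimmer X17053cds_s_at read 115.2 to 324.4 (median 164.6) in immature, 59.4 to 165.3 (median 108.15) in young and 25.4 to 142.6 (median 104.75) in mature kidney, and 56.4 to 194.6 (median 101.15) without a stage word. Its differences from immature kidney were -0.58 ± 0.17 in young (adjusted p = 0.0129), -0.72 ± 0.17 in mature (adjusted p = 0.00124) and -0.60 ± 0.17 without a stage word (adjusted p = 0.00653). Immature replicate 1, an array above 600, held the highest value on both probe sets, at 539.3 and 324.4. The lowest was on mature replicate 14 on both, at 79.2 and 25.4.

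In young against immature kidney 6 of the 8 probe sets were lower, where 9.21% of all probe sets tested were called lower and 18.7% in either direction. The probe sets not called were S57478cds_s_at of Anxa1 and X81448cds_at of Krt18. Inside batch 2, with 6 young and 7 immature arrays, the same 6 were called and the background was 29.3%. There the differences were -0.68 (adjusted p = 0.00578) for rc_AI171962_s_at, -0.46 (adjusted p = 0.000601) for Anxa2 and -0.74 (adjusted p = 0.000395) for rc_AI072634_at. A block for batch left 5 called (background 8.89%), and with batch and side of the split as blocks 2 were called, rc_AI072634_at of Krt18 and X17053mRNA_s_at of Ccl2 (background 5.49%).

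**Figure D3:**
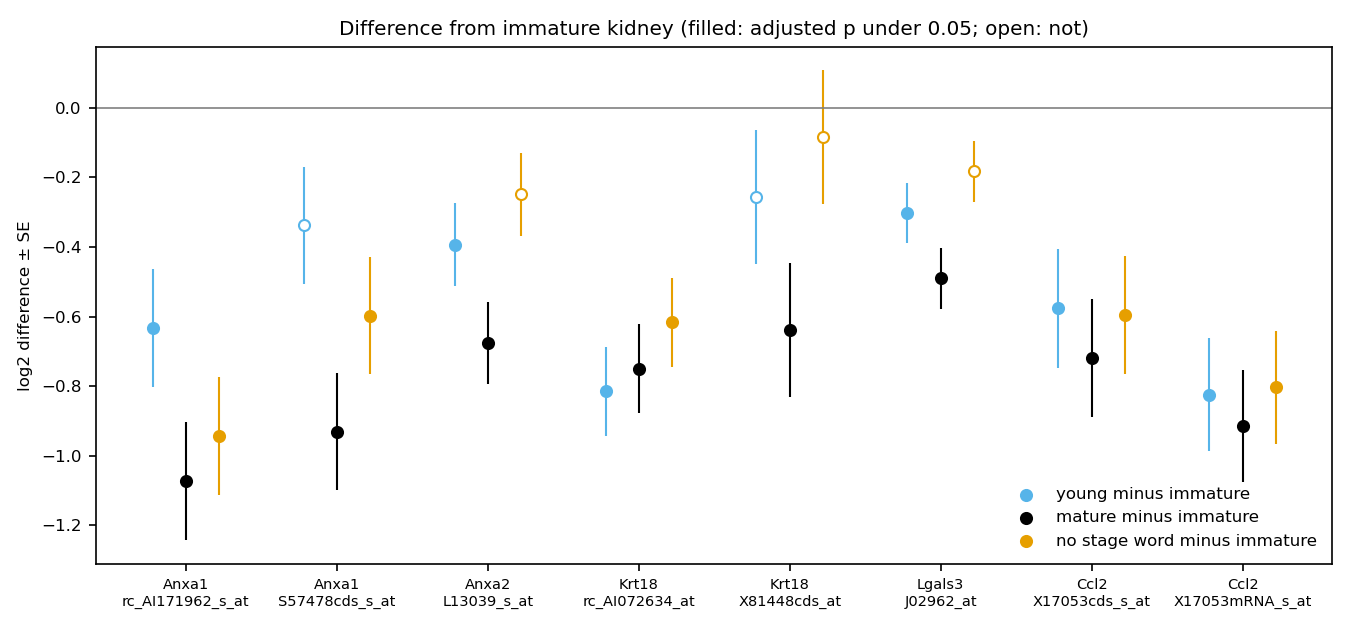
Log2 difference from immature kidney (± SE) of each probe set in young, mature and no-stage-word kidney. Filled points have an adjusted p under 0.05 and open points do not. The mature points lie between -1.07 and -0.49 and are all filled. The 5 open points are 2 of young kidney and 3 of kidney without a stage word.

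In kidney without a stage word against immature kidney 5 of the 8 were lower, where 14.4% of all probe sets tested were called lower and 27% in either direction. They are both probe sets of Anxa1, both of Ccl2 and rc_AI072634_at of Krt18. Inside batch 2, with 6 arrays without a stage word and 7 immature arrays, 7 were called against a background of 43.4%, with X81448cds_at as the exception. There Anxa2 differed by -0.43 (adjusted p = 0.000445), Lgals3 by -0.33 (adjusted p = 0.00818) and rc_AI171962_s_at of Anxa1 by -1.11 (adjusted p = 3.19e-05). A block for batch left 5 called (background 20%), and with batch and side of the split as blocks 3 were called, both probe sets of Anxa1 and X17053mRNA_s_at of Ccl2 (background 15%).

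The 3 groups other than immature were also compared with each other. In mature against young kidney 5 of the 8 had an unadjusted p under 0.05 in limma, as had 1286 of 6555 probe sets. Of the 8, 1 was called, S57478cds_s_at of Anxa1, at -0.59 ± 0.16 (adjusted p = 0.0447), where 1.8% of all probe sets tested were called. It was lost when batch was a block (-0.38, adjusted p = 0.221, background 1.31%), inside batch 3 (-0.27, adjusted p = 0.784, background 0.442%) and without mature replicates 1 and 9 (-0.44, adjusted p = 0.214, background 0.9%). Leaving out any 1 of 11 arrays also ended it (mature replicates 1, 5, 8 and 9 and young replicates 1, 2, 3, 4, 10, 13 and 14), with an adjusted p of up to 0.116. In mature against no-stage-word kidney none of the 8 was called, where 0.412% of all probe sets tested were. There 4 of the 8 had an unadjusted p under 0.05 in limma, as had 867 of 6555 probe sets. The nearest were Anxa2 at -0.43 ± 0.12 (adjusted p = 0.0683) and Lgals3 at -0.31 ± 0.09 (adjusted p = 0.0787). Anxa2 passed without any 1 of mature replicates 3, 6, 10 and 13 (adjusted p as low as 0.0411) and Lgals3 without mature replicate 13 (adjusted p = 0.0464). With batch as a block Anxa2 (-0.51, adjusted p = 0.00751), Lgals3 (-0.34, adjusted p = 0.0165) and X81448cds_at of Krt18 (-0.70, adjusted p = 0.0259) were lower in mature kidney (background 5.26%), while inside batch 3 none was called (background 0.214%). In no-stage-word against young kidney none of the 8 was called (background 0.229%). None had an unadjusted p under 0.05 in limma either, where 525 of 6555 probe sets had. Inside batch 2 S57478cds_s_at of Anxa1 was lower without a stage word than in young kidney (-0.73, adjusted p = 0.00125, background 27.1%), and inside batch 3, where no probe set of the array was called (background 0%), it stood at 0.10. These comparisons share their groups and are not independent of one another.

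Batch bore on how the mature minus immature result reads. Mature and immature arrays met only in batch 1, which held 4 and 6 of them. With batch as a block all 8 were still called (background 12.6%). Inside batch 1 none of the 8 was called in limma, where 47 of 6555 probe sets were (0.717%), and all 8 differences stayed below 0, between -0.24 and -0.72. Without the 2 arrays of high GAPDH ratio all 8 were called (background 24.9%). With batch and side of the split as blocks 7 were called (background 9.93%), X81448cds_at of Krt18 being the exception (-0.60, adjusted p = 0.0868). Among the mature arrays of batch 1, replicate 12, an array above 600, had a GAPDH ratio of 2.62 and an actin ratio of 2.82. Replicate 5 had ratios of 1.45 and 2.75. The immature arrays of batch 1 had GAPDH ratios of 0.83 to 1.03. The part of RNA quality in the contrasts inside batch 1 and above 600 was not tested.

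**Figure D4:**
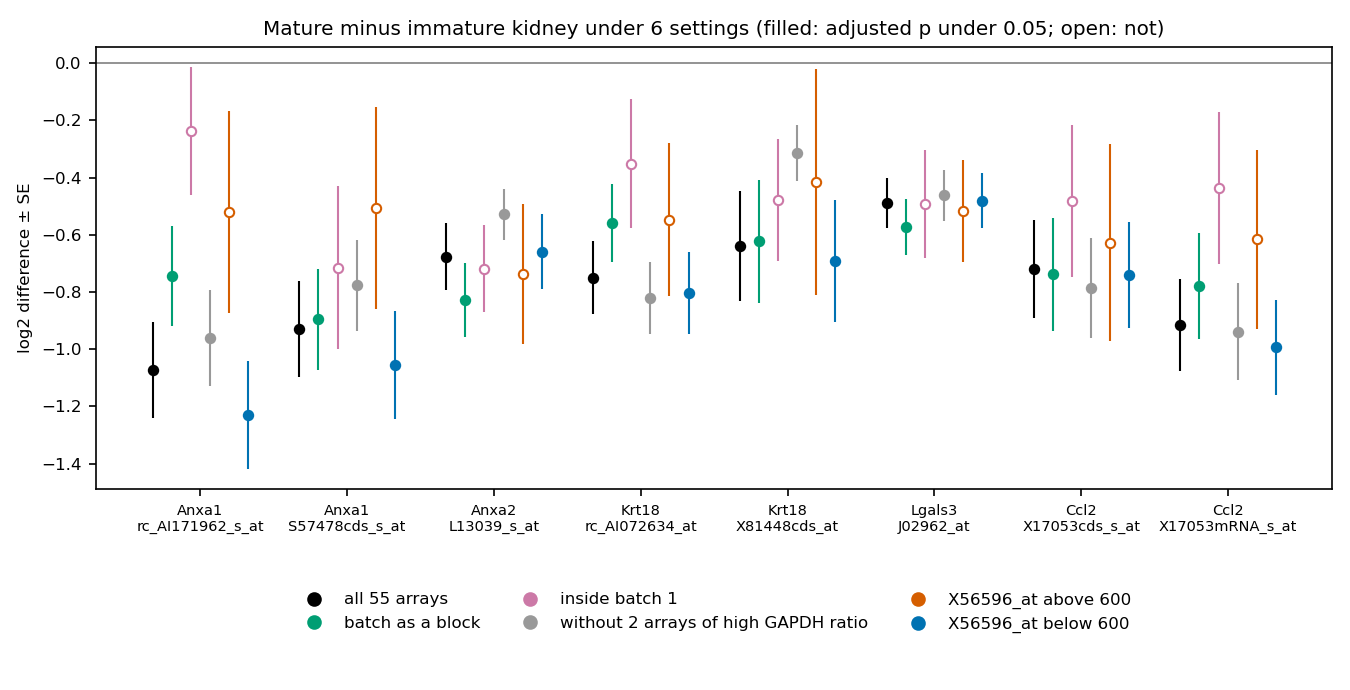
Mature minus immature log2 difference (± SE) of each probe set under 6 settings: all arrays, batch as a block, inside batch 1, without the 2 arrays of high GAPDH ratio, and on arrays with X56596_at above or below 600. Filled points have an adjusted p under 0.05. All points lie below 0, and those inside batch 1 and above 600 are open.

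Markers of cell types were called in both directions between mature and immature kidney. Of all probe sets tested 14.1% were called lower and 24.4% in either direction. Of 6 distal nephron and collecting duct markers 5 were lower and 1 higher in mature than in immature kidney, and their summed intensity was 7908.5 to 12431.4 in mature and 12034.3 to 17752 in immature kidney. Of 8 fibroblast and smooth muscle markers 4 were lower and 1 higher, with sums of 2718.1 to 11046.2 in mature and 7835.9 to 15968.9 in immature kidney. Of 7 leukocyte markers tested, of 11 on the array, Cd4 alone was called, and it was higher (0.56, adjusted p = 0.000691). The 11 summed to 5829.5 to 20367.9 in mature and 6052.7 to 10445.7 in immature kidney. Of 6 proximal tubule markers 2 were higher and 1 lower (median log2 difference 0.32). Of 3 thick ascending limb markers 1 was higher and 1 lower (median 0.38). Of 4 endothelial markers 1 was higher and 0 lower (median 0.30), as was 1 of 3 podocyte markers (median 0.06). Of 6 markers of other tissue 0 were called (median 0.25). The medians were -0.53 for the distal nephron and collecting duct, -0.83 for fibroblast and smooth muscle and 0.11 for leukocytes. No marker was at 0 on all arrays. The part of these cell types in the results for the 5 genes was not tested.

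Relatives of the 5 genes were read beside a background of 14.1% of all probe sets tested called lower and 24.4% in either direction. Of 6 other annexins and partners tested, S100a10, the p11 partner of annexin A2, was the single one called in mature against immature kidney, at -0.70 (adjusted p = 0.000122). It was also lower in young (-0.66, adjusted p = 0.000475) and in no-stage-word kidney (-0.69, adjusted p = 0.000128). Anxa4 (-0.26), Anxa6 (0.19) and S100a4 (-0.45) were not called, and the median over the 6 was -0.24, against 0.04 for all probe sets tested. Among 6 keratins and epithelial filament genes, Krt10, known from epidermis, was lower in mature than in immature kidney (-1.09, adjusted p = 8.21e-06), and none was higher. Krt8, the partner of keratin 18, named after its value was seen, stood at 0.05 (adjusted p = 0.811).

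Of 4 galectins and binding partners, Lgals1, which encodes galectin-1, was lower in mature than in immature kidney at -1.07 (adjusted p = 0.00716). Of 7 chemokines and receptors 2 were higher and none lower. These were Cx3cr1, the fractalkine receptor of monocytes (0.84, adjusted p = 0.00277), and its ligand Cx3cl1 (0.37, adjusted p = 0.0483), whereas Ccl2 was lower. Of 5 glucocorticoid-responsive genes Nfkbia, an NF-kappaB inhibitor, was higher (0.50, adjusted p = 0.00718) and none lower. Dusp1, a phosphatase gene also induced by glucocorticoids, stood at -0.51 (adjusted p = 0.0759).

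Other genes known from tubular injury were called in both directions. Of 23 tested 3 were higher and 3 lower in mature than in immature kidney, where 24.4% of all probe sets tested were called, and their median difference was 0.01, against 0.04 for all probe sets tested. Spp1, which encodes osteopontin, was lower (-0.78, adjusted p = 0.000676), as was the stress gene Nupr1 (-0.47, adjusted p = 0.0202). Tff3, a trefoil factor of epithelial repair, was higher (0.90, adjusted p = 0.00262), as was the hyaluronan receptor Cd44 (0.58, adjusted p = 0.0233). The other two calls, named after their values were seen, were Gdf15 (-0.52, adjusted p = 0.0339) and Tgfb1 (0.64, adjusted p = 0.0454). Lcn2, a widely used injury marker also named afterwards, stood at 0.40 and was not called (adjusted p = 0.0888).

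The genes whose pattern over the 55 arrays was most like each of the 5 were found by Pearson's r of log2 values with the brightest probe set of the gene, which was rc_AI171962_s_at for Anxa1, rc_AI072634_at for Krt18 and X17053mRNA_s_at for Ccl2. They were Fnta (0.84), Tcp11l2 (0.84) and Ddx39b (0.83) for Anxa1, and Slc14a2 (0.79), Rpl31 (0.79) and Mcm6 (0.76) for Anxa2. For rc_AI072634_at of Krt18 they were Nxt1 (0.80), Klf10 (0.80) and Myadm (0.77), and for Ccl2 Plod2 (0.76), Fxyd4 (0.73) and Plpp1 (0.70). Lgals3 had weaker likeness, to Col1a1 (0.62), Nrp1 (0.61) and Col1a2 (0.60). After the stage means were removed these values for Lgals3 were 0.40, 0.37 and 0.32, whereas those for Anxa1 were 0.71, 0.69 and 0.75. Without mature replicates 1 and 9 the values for Anxa2 were 0.71, 0.69 and 0.65, and 0.65, 0.52 and 0.29 with the stage means also removed. The arrays share stage, batch and scaling, so these values describe the arrays and carry no p.

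The split by X56596_at asked whether the 5 genes follow the RT1-Bb level. None of the 8 probe sets was called between arrays above and below 600 with stage as a term, where 9.15% of all probe sets tested were. None had an unadjusted p under 0.05 in limma, where 1464 of 6555 probe sets had. The differences lay between -0.14 and 0.18. None was called with batch as a block (background 2.12%), inside batch 1 (background 0.381%) or inside batch 2 (background 4.45%) either. On X17053mRNA_s_at of Ccl2 the 12 arrays above 600 read 123.2 to 539.3 (median 219.55) and the 43 below read 79.2 to 440.8 (median 182.2), a difference of 0.18 ± 0.14 (adjusted p = 0.465). On L13039_s_at of Anxa2 they read 729.5 to 1414 (median 880.6) above and 293 to 1615.6 (median 1123.4) below, a difference of -0.14 ± 0.10 (adjusted p = 0.435). The groups overlapped widely on every probe set. Such a p does not show that the levels were equal, and the standard errors of the 8 differences ran from 0.07 to 0.16.

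Inside the single stages the direction of the split varied, and none of the 32 differences passed in limma, 6 having an unadjusted p under 0.05. Of the 6555 probe sets tested, 1151 had such a p in immature, 907 in young, 1254 in mature and 971 in no-stage-word kidney. X17053mRNA_s_at of Ccl2 read 197.6, 259.4 and 323.8 on the 3 young arrays above 600 and 102.8 to 187.2 (median 160.4) on the 11 below. This difference, 0.67 ± 0.25, was the largest of the 32 upward and was not called (adjusted p = 0.182, background 1.21%). Its groups did not overlap, nor did those of 5.75% of all probe sets tested. Without a stage word the same probe set read 123.2, 128.9 and 137.4 above and 92.7 to 367.9 (median 182.2) below, a difference of -0.50 ± 0.25 (adjusted p = 0.337, background 1.77%). Anxa2 in that group read 809.6, 839 and 905 above and 996.2 to 1427.4 (median 1197) below, with no overlap (-0.47 ± 0.20, adjusted p = 0.235), as on 5.26% of all probe sets tested. In mature kidney (background 6.53%) and immature kidney (background 2.88%) the groups overlapped on L13039_s_at. The arrays above 600 of these groups lie in batch 2 (young and no stage word) or batch 1 (mature and immature), whereas most arrays below them in young, mature and no-stage-word kidney lie in batch 3. Inside batch 2 alone, with 3 arrays on each side, none of the 8 was called in young or in no-stage-word kidney.

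The lower mature level was called below 600 and had the same sign above it. Below 600, with 11 mature and 10 immature arrays, all 8 probe sets were lower in mature than in immature kidney, where 16.8% of all probe sets tested were called lower and 31% in either direction, with differences between -1.23 and -0.48. Above 600, with 3 arrays each, none of the 8 was called (background 2.91%), with differences between -0.74 and -0.42. An unadjusted p under 0.05 in limma was found for 3 of the 8 and for 894 of 6555 probe sets. Anxa2 read 729.5, 818.5 and 828.7 on the mature arrays above 600 and 1193.2, 1391.3 and 1414 on the immature arrays above 600, a difference of -0.74 ± 0.24 (adjusted p = 0.093). It passed in a separate fit of the arrays above 600 (adjusted p = 0.017) and without mature replicate 1 (adjusted p = 0.00622), an array below 600 that enters through the shared spread, and Lgals3 passed without immature replicate 3 (-0.78, adjusted p = 0.00805, against -0.52 with it). The test of the difference between the sides called none of the 8 in any of the 6 stage contrasts. For mature minus immature the adjusted p ran from 0.361 to 0.938 (background 1.82%). None of the 8 had an unadjusted p under 0.05, where 1108 of 6555 probe sets had. The background was 3.3% for young minus immature, 0.976% for no stage word minus immature, 0.229% for mature minus young, 0.351% for mature minus no stage word and 0% for no stage word minus young, and 0, 2, 0, 3 and 2 of the 8 had an unadjusted p under 0.05 in these contrasts. Of the 6555 probe sets tested, 1450, 1311, 633, 624 and 202 had such a p in the same order.

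Ccl2 in kidney without a stage word had a larger difference above 600 than below, which did not pass the test of the sides (-0.85 ± 0.39 on X17053cds_s_at, adjusted p = 0.214). Above 600 it was lower than in immature kidney by -1.27 ± 0.31 on X17053mRNA_s_at (adjusted p = 0.0103) and -1.26 ± 0.35 on X17053cds_s_at (adjusted p = 0.0216), beside rc_AI072634_at of Krt18 at -0.87 ± 0.27 (adjusted p = 0.0482), where 4.44% of all probe sets tested were called. Below 600 the Ccl2 differences were -0.68 ± 0.17 (adjusted p = 0.00165) and -0.41 ± 0.19 (adjusted p = 0.0814), with a background of 32.2%. Without immature replicate 1, the array with the highest Ccl2 level, the differences above 600 were -0.93 and -0.89 and neither passed (adjusted p = 0.154 and 0.241). The call of X17053cds_s_at was also lost without no-stage-word replicate 4, 8 or 12, and that of Krt18 without any 1 of 35 arrays (adjusted p of up to 0.201). With batch as a block none of the 3 passed (adjusted p = 0.076, 0.165 and 0.221), while S57478cds_s_at of Anxa1 did (-1.50, adjusted p = 0.0162). The 3 arrays without a stage word and the 3 immature arrays lie in different batches, so batch and stage cannot be told apart there. In young against immature kidney above 600 the single call was rc_AI072634_at of Krt18 at -0.89 ± 0.27 (adjusted p = 0.0378, background 5.87%), and below 600 it was -0.79 ± 0.14 (adjusted p = 8.63e-05) among 7 calls (background 21.7%). The call above 600 was lost without immature replicate 1 or 2 or young replicate 1, 2 or 14. Below 600 a block for batch left 2 of the 7, X17053mRNA_s_at of Ccl2 (adjusted p = 0.0104) and S57478cds_s_at of Anxa1 (adjusted p = 0.0254). Without that block, the call of S57478cds_s_at was lost without any 1 of 14 arrays (adjusted p of up to 0.0922), that of Anxa2 without immature replicate 6 or young replicate 11 (up to 0.0568) and that of Lgals3 without immature replicate 11 or 12 or young replicate 8 (up to 0.0573). Below 600 mature kidney was lower than kidney without a stage word for Anxa2 (-0.52 ± 0.13, adjusted p = 0.0454) and Lgals3 (-0.39 ± 0.09, adjusted p = 0.035), with a background of 0.427%, but neither was called inside batch 3 or without no-stage-word replicate 2.

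Some genes of the wider lists were called in the split, where 9.15% of all probe sets tested were. Lgals1 was higher on arrays above 600 (1.51, adjusted p = 2.59e-10), the single call among the 4 galectins and partners tested, while Lgals3 stood at -0.09 ± 0.07 (adjusted p = 0.522). Of the 5 glucocorticoid-responsive genes Nr3c1, which encodes the glucocorticoid receptor, was lower above 600 (-1.12, adjusted p = 0.00358). Of the 23 other injury genes 1 was higher and 3 were lower, the lower ones being Clu (-0.71, adjusted p = 1.75e-07), Lcn2 (-0.46, adjusted p = 0.0218) and Tgfb1 (-0.61, adjusted p = 0.0297), and the higher one Plaur (0.44, adjusted p = 0.0131). These 4 were named after their values were seen. Of the 7 leukocyte markers tested 2 were lower, and the sum of the 11 on the array was 4923.6 to 7930.2 above and 6052.7 to 20367.9 below 600. Cd74 alone read 2429.6 to 17235.8. Of 6 proximal tubule markers 3 were lower (median -0.27). Lower calls also took in 1 of 4 endothelial, 1 of 3 thick ascending limb and 1 of 6 distal nephron and collecting duct markers. Of 8 fibroblast and smooth muscle markers 1 was higher, and no podocyte or other-tissue marker was called. The part of cell types in the split was not tested.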

How the data were processed

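The deposited table holds 1 intensity per probe set and array on a linear scale, judged from its range and its even trimmed means. No source used here gives the authors' probe summary or scaling. With 2% trimmed, array means lay between 500.2 and 500.7, and no further scaling was applied. Analyses used log2(intensity + 15.82), the added offset being 0.1 times the overall median, which shrinks differences of dim probe sets. After 59 control probe sets were dropped, those in the lowest 25% by mean log2 were not tested, so 6555 remained.

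All arrays entered 1 linear model per question in limma 3.58.1 (R 4.3.3; lmFit and eBayes, 2-sided, Benjamini-Hochberg over all probe sets tested). The first held 4 stage means, the second added the side of the split, and the third held 1 mean per stage and side. Batches are 3 sets, a number fixed for the cut, from Ward clustering of 42 control probe sets. The fits were tested on simulated data. Every probe set of the 5 genes was named, with up to 4 members of each further list ranked by p for mature minus immature and the 3 most correlated genes. A gene of a list was represented by its brightest probe set. Members and lists were chosen with earlier results of these data known. Symbols were updated through RefSeq genes of GRCr8. The number of arrays limits the precision, and signal over background was not analysed here. Figures were drawn with matplotlib 3.10.9.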

Additional observations from a re-analysis of the deposited data

How the results depend on the processing

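No paired analysis was possible because the labels give no replicate numbers that groups share. The alternatives changed the scaling, the offset, the dim-value filter, the weighting of arrays, the prior variance, the blocks for batch or side, the samples (RNA quality, 1 batch, 1 array left out) and the split value, and those combining batch with side, joining stage with batch, or staying inside a batch and side were chosen after seeing the data. All 8 probe sets stayed lower in mature than in immature kidney and called under each of these except inside batch 1 (0 called) and, for X81448cds_at, with batch and side as blocks (7 called), and X17053cds_s_at was not tested with the filter at the 50th percentile. The F test lost X81448cds_at with an offset of 1 (adjusted p = 0.05) and without mature replicate 9. The number of probe sets called was 1867 among the stages and 4031 with array weights. For mature minus immature it was 1599, and 3691 with array weights, 829 with batch as a block, 47 inside batch 1 and 651 with batch and side as blocks. For young minus immature it was 1225, and 2902, 583, 1921 inside batch 2 and 360, with 2 of the 8 called in place of 6 under the last setting. For no stage word minus immature it was 1773, and 3831 with array weights, 2848 inside batch 2 and 980 with batch and side as blocks, where 3 of the 8 were called in place of 5.

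For mature minus young the number was 118, and 260 with array weights, 59 without the arrays of high GAPDH ratio, 29 inside batch 3 and 61 to 160 with each array left out. The 1 member called there gave 0 with quantile normalization, with each array divided by its median, without a filter, with batch as a block, without the arrays of high GAPDH ratio, inside batch 3, with batch and side as blocks, and 0 to 1 with each array left out. For mature minus no stage word it was 27, and 41 with quantile normalization, 11 with each array divided by its median, 51 with an offset of the median, 14 without a filter, 44 with the filter at the 50th percentile, 73 with array weights, 345 with batch as a block, 48 with side as a block, 14 inside batch 3, 348 with batch and side as blocks and 13 to 50 with each array left out. Of the 8, 1 was called with the offset of the median, with the filter at the 50th percentile and with array weights, 3 with batch or with batch and side as blocks, and 0 to 2 with each array left out. For no stage word minus young it was 15, and 3 with each array divided by its median, 372 with array weights, 66 with batch as a block, 33 without the arrays of high GAPDH ratio, 1778 inside batch 2 (1 of the 8 called), 0 inside batch 3, 77 with batch and side as blocks and 8 to 23 with each array left out. For the split it was 600, and 139 with batch as a block, 25 inside batch 1, 292 inside batch 2 and 170 with stage and batch as 1 block. Of the 96 stage contrasts within a side 25 were called, and 14 with batch as a block. For mature, young and no-stage-word against immature kidney the background was 2.91%, 5.87% and 4.44% above 600. Below 600 it was 31%, 21.7% and 32.2%, and 0.427% for mature against no-stage-word kidney. No background is given here for the 14. Of the 32 side differences within a stage 0 were called, and 0 to 1 with each array left out.

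Signs turned only where the difference was not called. For X81448cds_at in no stage word minus immature the value was 0.036 with array weights, 0.081 with batch as a block and 0.10 with batch and side as blocks, and in young minus immature below 600 it was 7.3e-05 inside batch 2. For rc_AI072634_at in mature minus young it was -0.13 with array weights, -0.0057 without the arrays of high GAPDH ratio and -0.063 inside batch 3. For rc_AI171962_s_at in mature minus no stage word it was 0.031 with batch as a block and 0.027 with batch and side as blocks. In no stage word minus young S57478cds_s_at gave 0.096 inside batch 3. X17053cds_s_at gave 0.020 with quantile normalization, 0.021 with each array divided by its median, 0.0057 with the offset of the median, 0.28 inside batch 3 and -0.082 to 0.037 with an array left out. X17053mRNA_s_at gave -0.0063 with array weights, -0.34 inside batch 2 and -0.057 to 0.086 with an array left out. In the split, batch as a block gave -0.083 for rc_AI171962_s_at, 0.15 for S57478cds_s_at, -0.18 for rc_AI072634_at, -0.055 for X81448cds_at and -0.0028 for X17053cds_s_at. Stage and batch as 1 block gave -0.027, 0.17, -0.16 and -0.040 for the first 4 of these. Inside batch 2 the values were -0.11 for rc_AI171962_s_at, -0.27 for rc_AI072634_at, -0.28 for X81448cds_at and -0.069 for X17053cds_s_at, and inside batch 1 they were 0.53 for S57478cds_s_at, -0.010 for rc_AI072634_at and 0.071 for J02962_at. Array weights gave -0.088 for X81448cds_at, and X17053cds_s_at ran from -0.033 to 0.12 with an array left out. In young minus immature above 600 rc_AI171962_s_at ran from -0.36 to 0.016 with an array left out and S57478cds_s_at gave -0.75 with batch as a block. The cause of these changes was not tested. Of the other values under an alternative, 1131 kept direction and side of the threshold, 53 lost a call and 31 gained one. Batch and stage overlap in part, 3 arrays a stage lie above 600, and signal over background was not analysed, which limits every comparison.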
